A study of Mus musculus with 12 samples.

Results

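The genes described here are the glucocorticoid receptor Nr3c1, the mineralocorticoid receptor Nr3c2 and 8 genes known to be induced by glucocorticoids, Fkbp5, Tsc22d3, Sgk1, Map3k6, Zbtb16, Hif3a, Pdk4 and Plin4. They were chosen by name from the 54833 genes of the table, each symbol matched 1 row, and all 10 were among the 21495 genes that passed the filter on low counts. They were named with results of these data in view, Map3k6 for its rise after intracerebral hemorrhage (ICH). The differences between ICH and sham in these 10 genes are therefore given as a description without a test, whereas their differences between ages were tested. The other gene lists of the pathway were fitted and given with their adjusted *P*, but they too were drawn up with earlier results of these data known, so their counts are not independent evidence of a direction.

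RNA-seq was performed on 12 samples in 4 groups of 3, all from male wild-type C57BL/6 mice, with young mice of 8 to 10 weeks and aged mice of 20 to 22 months. The young ICH and aged ICH groups had received collagenase, an enzyme that opens small vessels, in the basal ganglia, and the young sham and aged sham groups had received saline through the same surgery and anesthesia. Perihematomal tissue of the ipsilateral caudate putamen, or the corresponding tissue of sham mice, was taken 24 h after the injection. Each sample pooled the tissue of 2 or 3 mice, so the spread given is between pools and not between animals.

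Glucocorticoids are the steroid hormones of the adrenal cortex and rise with stress and with the daily rhythm. They cross into brain cells, bind the receptor held in the cytosol by HSP90 and its partners, and send it to the nucleus, where it binds DNA as a dimer and raises the transcription of a set of target genes in glia, vessels and neurons. The mineralocorticoid receptor binds the same hormone with higher affinity. Some targets feed back on the pathway, such as Fkbp5, a co-chaperone that lowers the hormone affinity of the receptor, and others change metabolism or dampen inflammation.

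The DNA element that the receptor dimer binds is a palindrome of 2 arms, AGAACA and TGTTCT, with any 3 bases between them. A looser core, GNACA and TGTNC around any 3 bases (N stands for any base), was searched as well. Both read the same on either strand. The search covered windows from 250 bases before to 50 bases after a gene start (RefSeq, GRCm38.p6). Such windows were at hand for 8 of the 10 genes (15 windows in all), and not for Nr3c1 and Zbtb16. The full palindrome was present in the windows of 3 of 27025 genes (0.0111%), of which Sgk1 was 1. The core was present in 145 genes (0.536%), among them Sgk1 and Map3k6, and, of 20 other glucocorticoid-induced genes with a window, Mt1 and Fam107a. A single arm (TGTTCT, counted on both strands, and contained in the full palindrome) was found in 21.3% of all genes and in Tsc22d3 and Sgk1 among the 8. The stretches around these 4 elements are printed because they show which genes carry the core close to a start. The 15 bases of the element are in capitals with 40 bases of flank on each side, 5′ to 3′ on the strand of the gene.
Sgk1: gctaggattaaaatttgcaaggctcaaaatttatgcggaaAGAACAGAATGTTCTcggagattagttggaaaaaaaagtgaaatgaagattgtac
Map3k6: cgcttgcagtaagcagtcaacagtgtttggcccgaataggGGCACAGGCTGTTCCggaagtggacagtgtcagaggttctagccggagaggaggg
Mt1: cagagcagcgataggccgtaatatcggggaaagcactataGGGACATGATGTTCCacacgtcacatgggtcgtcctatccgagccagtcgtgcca
Fam107a: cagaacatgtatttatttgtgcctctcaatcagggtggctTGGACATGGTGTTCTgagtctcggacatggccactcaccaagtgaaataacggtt
The Sgk1 stretch (GRCm38.p6, chr10:21993661-21993755, plus strand) matched every fixed letter of the palindrome, with the centre of the element 182 bases before 1 of the starts of this gene and within an intron of its longer transcripts. That of Map3k6 (chr4:133240596-133240690, plus strand) differed at 3 fixed letters, lay 175 bases before the start and overlapped no annotated transcript. The Mt1 stretch (chr8:94178954-94179048, plus strand) differed at 3 letters and that of Fam107a (chr14:8309844-8309938, minus strand) at 2. A match of letters is a description of these windows and not evidence of binding.

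The depth, as reads counted on genes, was 28410896 to 37785160 per sample, and the lowest count of any of the 10 genes in any sample was 208. The 8 striatal neuron markers, such as Drd1 and Ppp1r1b, were present in all samples, with a summed level of 1064 to 2154 CPM (counts scaled to library size) in sham samples and 249 to 1497 CPM in ICH samples. Choroid plexus markers, which do not belong to the caudate putamen, stood apart in 3 libraries, with a sum of 4110 CPM in young ICH replicate 3 and 1568 and 1992 CPM in aged ICH replicates 1 and 2, against 13 to 495.8 CPM in the other 9. In bulk tissue, fewer cells of a type and less RNA per cell cannot be told apart.

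Both receptors had lower levels in ICH samples than in sham samples at both ages. Nr3c1 (ENSMUSG00000024431, chromosome 18, 39410545 to 39519421, minus strand) encodes the glucocorticoid receptor. Its level was 123, 153 and 148 CPM in young sham samples and 115, 121 and 104 CPM in young ICH samples, and 156, 129 and 153 CPM in aged sham samples and 124, 116 and 120 CPM in aged ICH samples. At both ages every ICH sample thus lay below every sham sample, with a log2FC of −0.32 ± 0.09 (SE) in young and −0.28 ± 0.09 in aged mice. Nr3c2 (ENSMUSG00000031618, chromosome 8, 76899442 to 77245012, plus strand) encodes the mineralocorticoid receptor. Its level was 47.7, 45.3 and 38.1 CPM in young sham, 42.3, 36.1 and 33.2 CPM in young ICH, 52.5, 55.4 and 51.1 CPM in aged sham and 36.7, 47.8 and 42.7 CPM in aged ICH samples. The groups overlapped in young mice (log2FC −0.23 ± 0.12) and did not overlap in aged mice (−0.32 ± 0.12). Per transcript length, Nr3c1 was the more abundant receptor in every sample, with 14.5 to 20.5 FPKM against 5.31 to 8.41 FPKM, a ratio of 2.03 to 3.39.

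Map3k6 (ENSMUSG00000028862, chromosome 4, 133240818 to 133252929, plus strand) encodes a kinase at the top of a stress-activated MAP kinase cascade. Its level was 8.18, 6.60 and 9.73 CPM in young sham and 22.3, 24.3 and 22.0 CPM in young ICH samples, and 7.91, 9.31 and 8.98 CPM in aged sham and 21.5, 21.7 and 22.8 CPM in aged ICH samples. All 6 ICH samples lay between 21.5 and 24.3 CPM, far above the 6 sham samples, and no sample stood apart. The log2FC of ICH against sham was 1.49 ± 0.12 (2.80-fold) in young mice and 1.33 ± 0.12 (2.52-fold) in aged mice, the largest of the 10 genes at both ages.

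Fkbp5 (ENSMUSG00000024222, chromosome 17, 28399094 to 28517527, minus strand) was measured at 74.3, 55.1 and 62.8 CPM in young sham and 130.2, 94.7 and 91.5 CPM in young ICH samples. In aged mice it was 64.1, 69.0 and 53.0 CPM in sham and 79.0, 86.4 and 89.0 CPM in ICH samples. ICH samples were above sham samples without overlap at both ages, by a log2FC of 0.72 ± 0.15 in young and 0.45 ± 0.15 in aged mice. Young ICH replicate 1 held the highest level of all 12 samples.

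Sgk1 (ENSMUSG00000019970, chromosome 10, 21882184 to 21999903, plus strand), a kinase that regulates ion channels and transporters, had the highest mean level per transcript length of the 10 genes in each group, with 25.3 to 51.3 FPKM over the samples. Its level was 169.1, 129.9 and 166.5 CPM in young sham, 237.4, 168.8 and 243.2 CPM in young ICH, 130.3, 198 and 131.4 CPM in aged sham and 168.3, 216.3 and 183.2 CPM in aged ICH samples. ICH and sham samples overlapped at both ages, through young ICH replicate 2 and aged sham replicate 2 (log2FC 0.48 ± 0.19 in young and 0.30 ± 0.19 in aged mice).

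Tsc22d3 (ENSMUSG00000031431, chromosome X, 140539528 to 140600659, minus strand) encodes GILZ, a leucine zipper protein that mediates part of the anti-inflammatory action of glucocorticoids. It was at 94.0, 86.3 and 109.5 CPM in young sham, 153.7, 103.8 and 114.9 CPM in young ICH, 73.9, 94.1 and 72.1 CPM in aged sham and 73.0, 83.9 and 74.5 CPM in aged ICH samples. In aged mice, injured samples lay within the range of the sham samples (log2FC −0.05 ± 0.15), whereas in young mice they were higher on average but overlapped (0.36 ± 0.15).

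**Figure D1:**
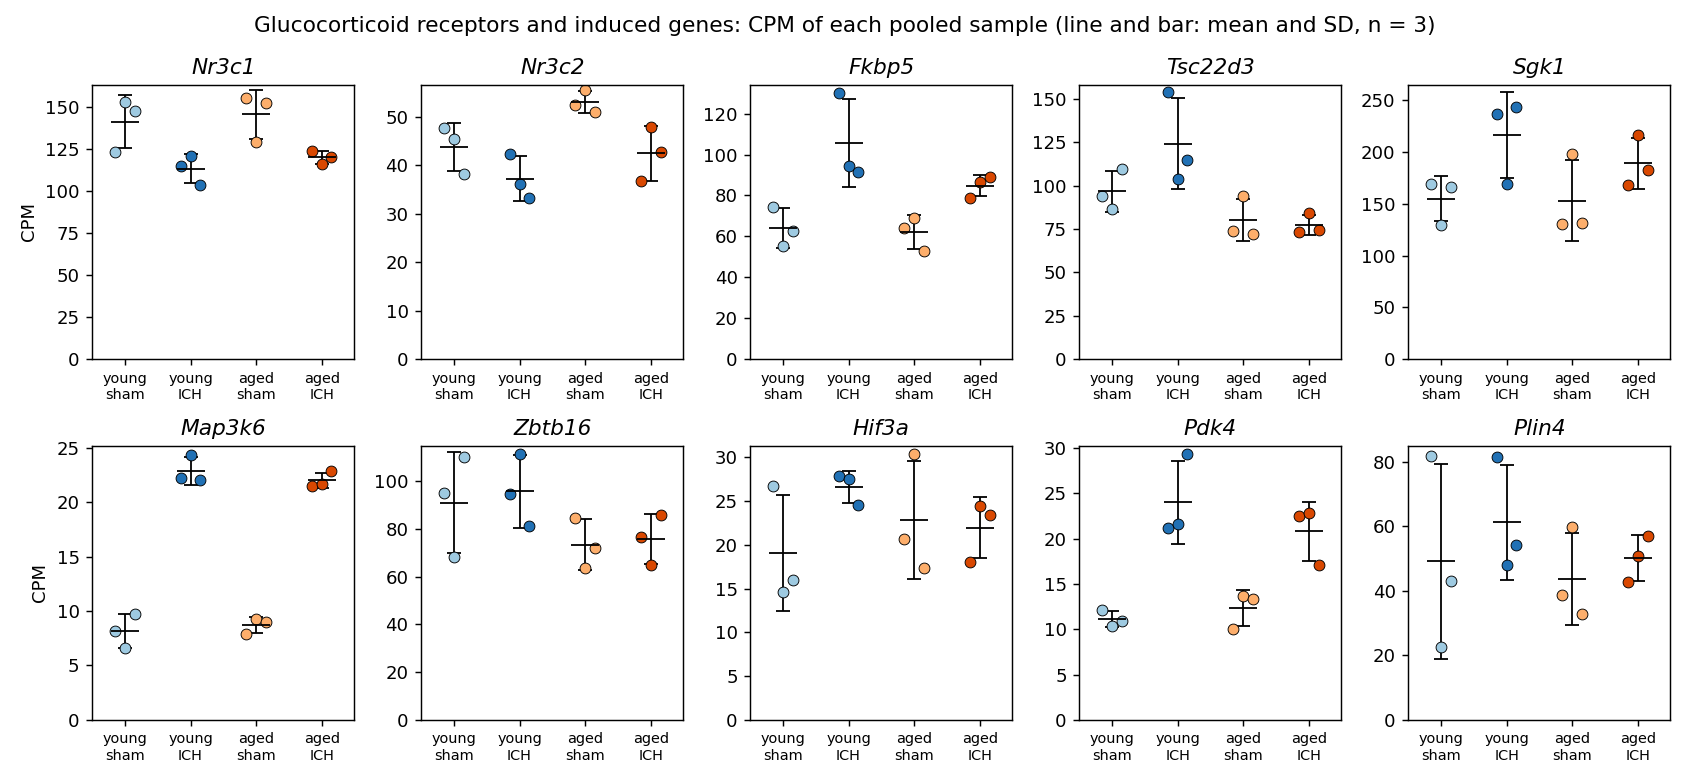
Level of each of the 10 genes in CPM (y axis, from 0) in the 3 pooled samples of each group (x axis), with the mean and SD. Map3k6 and Pdk4 show ICH samples that are all above the sham samples at both ages, Nr3c1 shows ICH samples that are all below them, and Plin4 shows the widest spread within a group, from 22.4 to 81.8 CPM in young sham samples.

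The 2 metabolic genes behaved differently, with separate groups for Pdk4 and overlapping groups for Plin4. Pdk4 (ENSMUSG00000019577, chromosome 6, 5483351 to 5496309, minus strand) encodes a kinase that inhibits pyruvate dehydrogenase and so spares glucose. Its level was 12.2, 10.4 and 10.9 CPM in young sham, 21.2, 21.6 and 29.3 CPM in young ICH, 10.0, 13.7 and 13.3 CPM in aged sham and 22.5, 22.9 and 17.1 CPM in aged ICH samples. ICH samples were above sham samples without overlap at both ages, with a log2FC of 1.11 ± 0.16 in young and 0.75 ± 0.16 in aged mice. The highest young and the 2 highest aged ICH samples were the 3 libraries with much choroid plexus RNA. Without these the values were 0.94 and 0.48, with 2 young ICH samples and 1 aged ICH sample left. The part of choroid plexus RNA in the levels of Pdk4 was not tested.

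Plin4 (ENSMUSG00000002831, chromosome 17, 56100591 to 56109803, minus strand) encodes a protein of lipid droplets. It was at 81.8, 22.4 and 42.9 CPM in young sham, 81.5, 47.9 and 54.0 CPM in young ICH, 38.6, 59.6 and 32.7 CPM in aged sham and 42.7, 50.9 and 57.0 CPM in aged ICH samples. The groups overlapped at both ages, with a log2FC of 0.32 ± 0.38 in young and 0.20 ± 0.38 in aged mice, and without young sham replicate 1 the former was 0.91. Plin4 overlaps the gene Hdgfl2 on the opposite strand, which had a mean count of 2557 against 1650 for Plin4. The sources used here do not say whether the counting used strand, so shared reads cannot be told apart.

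The 2 transcription factor genes overlapped between ICH and sham at both ages. Zbtb16 (ENSMUSG00000066687, chromosome 9, 48654297 to 48836222, minus strand), which encodes the zinc finger repressor PLZF, was at 94.9, 68.0 and 110.1 CPM in young sham, 94.6, 111.5 and 81.0 CPM in young ICH, 84.5, 63.4 and 72.0 CPM in aged sham and 76.4, 64.7 and 85.8 CPM in aged ICH samples. Its log2FC was 0.07 ± 0.18 after ICH in young animals and 0.04 ± 0.18 in aged ones, with overlap at both ages. Hif3a (ENSMUSG00000004328, chromosome 7, 17031507 to 17062427, minus strand) encodes an alpha subunit of the hypoxia-inducible factors that can restrain the others. It was at 26.7, 14.7 and 15.9 CPM in young sham and 27.8, 27.5 and 24.5 CPM in young ICH, and at 20.7, 30.4 and 17.4 CPM in aged sham and 18.0, 24.5 and 23.4 CPM in aged ICH samples. The groups overlapped at both ages (log2FC 0.48 ± 0.24 in young and −0.06 ± 0.24 in aged mice).

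Over the 10 genes, the ICH samples of young mice were all above the sham samples in 3 (Fkbp5, Map3k6 and Pdk4) and all below them in 1 (Nr3c1), where the shares over all genes tested were 18.5% and 16.5%. In aged mice the numbers were 3 (the same genes) and 2 (Nr3c1 and Nr3c2), where 17.8% and 17.3% of all genes were separated in this way. The median log2FC of the 10 genes was 0.42 in young and 0.12 in aged mice, against 0.02 and 0.00 over all genes tested. The median in young mice was 0.67 without young sham replicate 1, and that in aged mice 0.35 without aged sham replicate 2, 0.030 without aged sham replicate 3 and 0.035 without aged ICH replicate 3. Since the genes were chosen with these differences known, no support is drawn from these counts. Without the 3 libraries rich in choroid plexus RNA, the log2FC in young and aged mice was 1.51 and 1.39 for Map3k6, 0.81 and 0.53 for Fkbp5 and −0.26 and −0.27 for Nr3c1. These values rest on 2 young ICH samples and 1 aged ICH sample.

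Markers of other cells moved with ICH beside these genes. Upregulated genes were those with a fold change (FC) above 1.5 and an unadjusted *P* under 0.05 (edgeR), and downregulated genes had an FC below 0.67 with the same *P*. By these criteria 8.66% of all genes were upregulated in young ICH vs. young sham and 7.24% in aged ICH vs. aged sham. Of the 8 endothelial markers, 4 were upregulated in young and 3 in aged mice, and the summed level was 292 to 350 CPM in young sham, 407 to 426 CPM in young ICH, 318 to 366 CPM in aged sham and 373 to 452 CPM in aged ICH samples. Their log2FC was positive in 7 and negative in 1 in young mice, and positive in 6 and negative in 2 in aged mice. Of the 8 monocyte markers, 5 were upregulated at each age, from 136 to 151 CPM to 256 to 305 CPM in young and from 109 to 187 CPM to 251 to 316 CPM in aged mice. At each age 7 of the 8 had a positive log2FC and 1 a negative one. Of the 7 neutrophil markers tested, 5 were upregulated at each age, from 0.94 to 1.97 CPM to 7.11 to 17.3 CPM in young and from 2.85 to 11.2 CPM to 19.5 to 30.2 CPM in aged mice. The 8 astrocyte markers summed to 5718 to 6561 CPM in sham and 6176 to 6804 CPM in ICH samples, with 3 upregulated in young and 1 in aged mice. They moved in both directions, with a positive log2FC in 5 and a negative one in 3 at each age. The mean of Gfap rose from 689 to 1729 CPM in young and from 829 to 1821 CPM in aged mice. That of Slc1a2, the most abundant of the 8, fell from 3443 to 2790 CPM and from 3453 to 2725 CPM. Adipocyte and muscle markers, which stand for tissues rich in Pdk4 and Plin4, summed to 4.54 to 7.13 CPM over all 12 samples, and 3 of the 8 passed the filter. No list had a marker at 0 in all samples of a group. The part of these cells in the levels of the 10 genes was not tested.

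The effect of age was tested first in sham mice. None of the 10 genes met the criteria in aged sham vs. young sham, in which 3.72% of all genes did. At an unadjusted *P* under 0.05 alone there was 1, Nr3c2, with a log2FC of 0.28 ± 0.12 (edgeR, adjusted *P* = 0.367), where 12.3% of all genes were past that limit. All 3 aged sham samples of Nr3c2, at 51.1 to 55.4 CPM, lay above all 3 young sham samples, at 38.1 to 47.7 CPM, as in 9.81% of all genes. Nr3c1 did not pass (log2FC 0.04, 95% confidence interval −0.16 to 0.25, edgeR, adjusted *P* = 0.888), nor did Fkbp5 (−0.05, interval −0.37 to 0.28, edgeR, adjusted *P* = 0.927). The remaining genes had a log2FC between −0.31 (Zbtb16) and 0.26 (Hif3a). Cell markers differed between these groups as well. In aged sham vs. young sham, 6 of 7 neutrophil, 3 of 5 red cell and 2 of 8 monocyte markers tested were upregulated, where 2.82% of all genes were. None of these markers passed the adjustment, and their part in the levels of the 10 genes was not tested.

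In aged ICH vs. young ICH, Tsc22d3 was the only 1 of the 10 genes to meet the criteria, which 3.52% of all genes met, 1.3% in this direction. It was lower in aged ICH samples, at 73.0 to 83.9 CPM, than in young ICH samples, at 103.8 to 153.7 CPM, without overlap. The log2FC was −0.69 ± 0.15 (95% confidence interval −1.01 to −0.36), and it did not pass the adjustment over all genes (edgeR, adjusted *P* = 0.161). Without young ICH replicate 1, the highest sample, the log2FC was −0.50, under the fold limit. Groups did not overlap in 2 further genes, Fkbp5 (log2FC −0.32 ± 0.15, edgeR, adjusted *P* = 0.533) and Hif3a (−0.28 ± 0.24, edgeR, adjusted *P* = 0.749), both with the lower level in aged mice. For Hif3a this was close to a tie, with 24.48 CPM in aged ICH replicate 2 and 24.52 CPM in young ICH replicate 3. The share of all genes in which aged ICH samples were all below young ICH samples was 6.42%. The log2FC was negative in all 8 induced genes, from −0.69 to −0.05, and positive in both receptors, 0.08 for Nr3c1 and 0.19 for Nr3c2, where 49% of all genes were above 0. The same ICH samples are part of the differences from sham given above, so these are not separate observations. Oligodendrocyte markers differed between the same groups, with sums of 5618 to 7346 CPM in young ICH and 4236 to 4936 CPM in aged ICH samples and 4 of 8 downregulated in aged ICH vs. young ICH. Neutrophil markers, at 7.11 to 17.3 CPM in young ICH and 19.5 to 30.2 CPM in aged ICH samples, had 4 of 7 upregulated, where 2.21% of all genes were. Between the sham groups 6 of the 7 were upregulated in aged mice, so this difference was not particular to ICH samples. Of the 8 pericyte and fibroblast markers, the collagen genes Col1a1 and Col1a2 were downregulated, with sums of 279 to 345 CPM in young ICH and 245 to 276 CPM in aged ICH samples. Of the other lists, 1 monocyte marker (Chil3) was upregulated and 1 adipocyte and muscle marker (Mb) downregulated. The part of these cells in the difference of Tsc22d3 was not tested. Without the 3 libraries rich in choroid plexus RNA, the log2FC of Tsc22d3 was −0.79, a value that rests on 2 young ICH samples and 1 aged ICH sample.

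Whether the difference between ICH and sham itself changed with age was tested by the interaction, the log2FC in the aged groups minus the log2FC in the young groups. None of the 10 genes met the criteria, which 1.56% of all genes met, and none passed at an unadjusted *P* under 0.05. With the adjustment, no gene of the whole table passed with edgeR and 1 did with DESeq2. Tsc22d3 had the smallest *P*, with a difference of −0.42 ± 0.21 (95% confidence interval −0.87 to 0.04, edgeR, adjusted *P* = 1). The difference was −0.53 ± 0.34 for Hif3a, −0.35 ± 0.23 for Pdk4, −0.27 ± 0.21 for Fkbp5 and −0.15 ± 0.17 for Map3k6 (edgeR, adjusted *P* = 1 for each). It was negative in all 8 induced genes, where 48.9% of all genes were above 0, and in each the interval included 0. Under other settings it ranged from −0.70 to 0.23 for Plin4, −0.19 to 0.14 for Zbtb16 and −0.32 to 0.05 for Sgk1. The 8 genes share their pools and tended to be high or low together, so they are not separate observations. Hif3a met the criteria without young sham replicate 1 (−0.86).

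**Figure D2:**
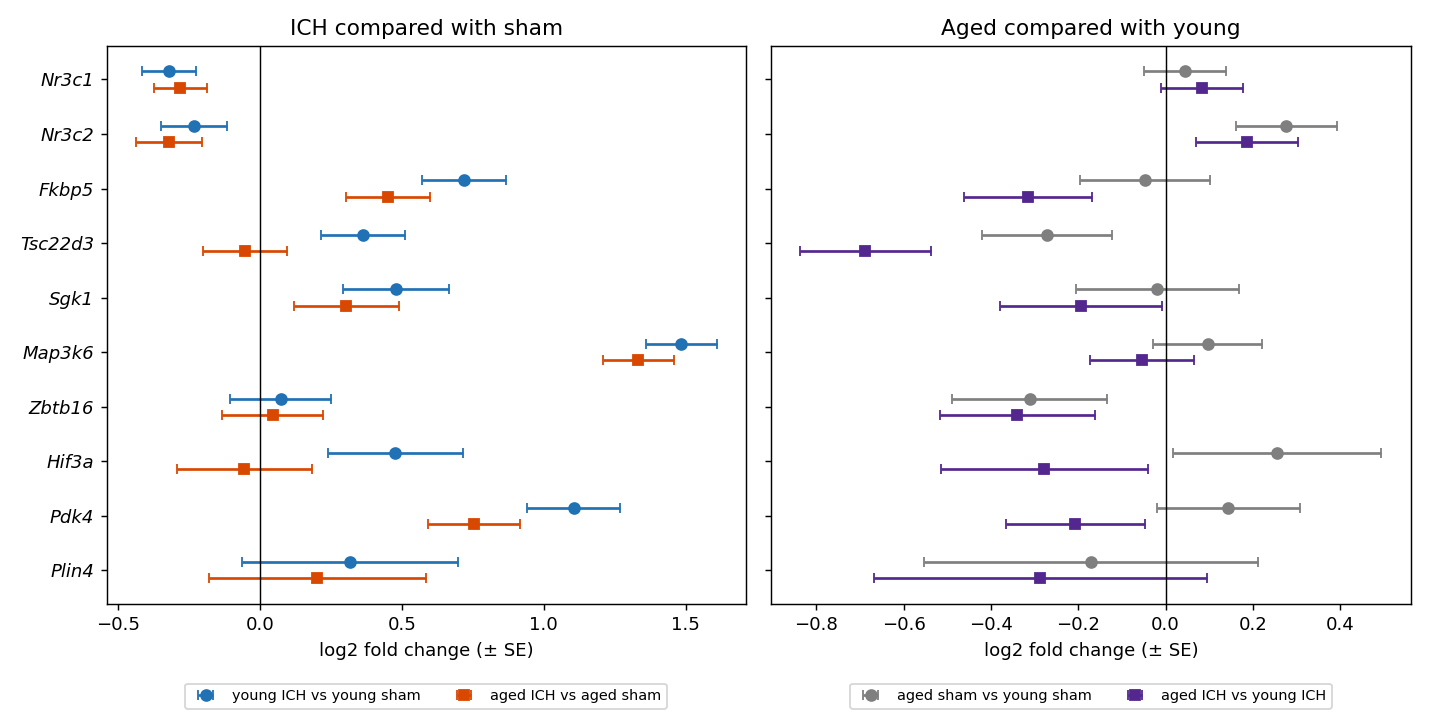
Log2 fold change with its SE (x axis) for each gene (y axis), on the left for ICH compared with sham in young mice (circles) and aged mice (squares), on the right for aged compared with young mice in sham (circles) and ICH samples (squares). Map3k6 had the largest difference after ICH at both ages, 1.49 and 1.33, both receptors lay below 0 on the left, and Tsc22d3 lay lowest on the right, at −0.69 in ICH samples.

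The pools of one group differed from each other in these genes more than in most genes. The SD of log2 CPM within groups was larger than that of 86.8% to 98.9% of 9674 genes, those at least as abundant as the least abundant of the 10, in 7 of the 10 genes, namely Fkbp5, Tsc22d3, Sgk1, Zbtb16, Hif3a, Pdk4 and Plin4. It was largest in Plin4 (0.56) and Hif3a (0.34), against a median of 0.10 over these genes. For Map3k6 and Nr3c2 the share was 77.6%, and for Nr3c1 64.7%. These shares describe single genes and were not tested.

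The induced genes tended to be high or low in the same pool. In young sham replicate 2, all 8 induced genes had the lowest level of their group, where 33.1% of all genes had theirs. Plin4 was at 22.4 CPM in this pool against 42.9 and 81.8 CPM in the other two, Hif3a at 14.7 against 15.9 and 26.7 CPM, and Zbtb16 at 68.0 against 94.9 and 110.1 CPM. In aged sham replicate 2, 7 of the 8 had the highest level of their group, the exception being Zbtb16, which had its lowest there. The share of all genes with the highest level in that pool was 35.6%. Among aged ICH samples, 6 of 8 were lowest in replicate 1 (28.9% of all genes), and among young ICH samples 4 were highest in replicate 1 (30.4% of all genes). Of the 24 other glucocorticoid-induced genes named further on, 16 were lowest in young sham replicate 2 and 0 highest, and 15 were highest in young ICH replicate 1. In the aged groups the 24 genes were divided. In aged sham replicate 2, 12 of the 24 were highest and 6 lowest, and in replicate 3, where 0 of the 8 were highest, 11 of the 24 were (33% of all genes). In aged ICH replicate 1, 10 of the 24 were lowest and 6 highest, and in replicate 2, 15 were highest (34.8% of all genes). Genes of one pool share its animals and its dissection, so these counts are a description of pools.

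Cell markers differed between the same pools. In young sham samples the 8 oligodendrocyte markers summed to 4803 CPM in replicate 2 against 8202 and 6524 CPM in replicates 1 and 3, and the endothelial markers to 292 against 350 and 307 CPM. In aged sham samples the oligodendrocyte markers were at 6869 CPM in replicate 2 against 5300 and 6687 CPM, and the striatal neuron markers at 1968 against 1610 and 1064 CPM. In aged ICH samples the striatal neuron markers were at 249 CPM in replicate 1 against 1497 and 601 CPM. Their part in the differences between pools was not tested.

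**Figure D3:**
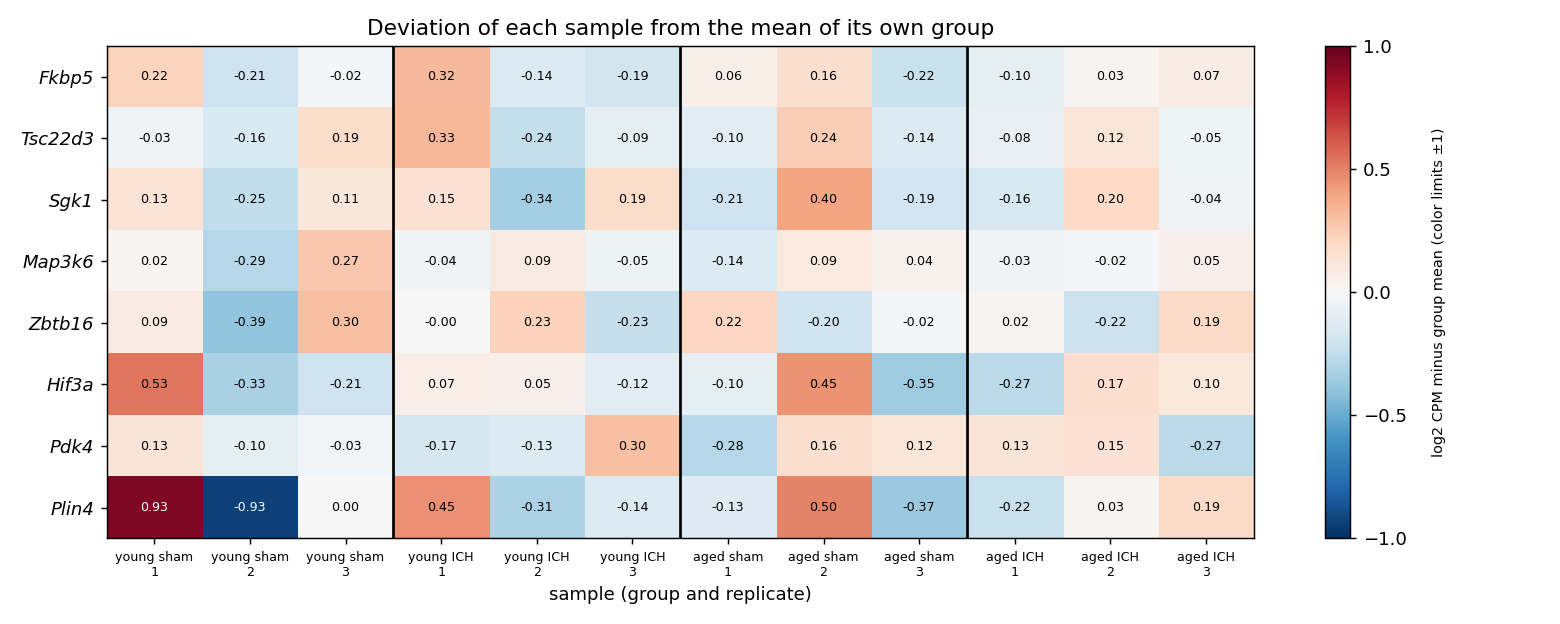
Log2 CPM of the 8 induced genes (rows) in each sample (columns), minus the mean of the group of that sample, with red above and blue below the group mean. All 8 cells of young sham replicate 2 are below 0, down to −0.93 for Plin4, and 7 of 8 cells of aged sham replicate 2 are above 0.

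A list of 24 other genes known to be induced by glucocorticoids was examined, namely Per1, Klf9, Klf15, Dusp1, Ddit4, Errfi1, Gjb6, Mt1, Mt2, Nfkbia, Sult1a1, Arrdc2, Arl4d, Bcl6, Mertk, Cdkn1a, Cebpd, Angptl4, Rhob, Fam107a, Plekhf1, Sdc4, Pla2g3 and Rasd1. All passed the filter. Since the list was drawn up with earlier results of these data known, the counts and *P* values that follow describe it and are not independent evidence of its direction. In young ICH vs. young sham, 12 were upregulated and 0 downregulated, and 13 passed the adjustment over all genes in the same direction. In aged ICH vs. aged sham, 9 were upregulated and 0 downregulated, and 9 passed the adjustment. Over all genes, 8.66% were upregulated, 3.49% downregulated and 9.89% past the adjustment upward in the young comparison, and 7.24%, 2.82% and 7% in the aged one. The median log2FC of the list was 0.54 in young and 0.39 in aged mice, against 0.02 and 0.00 over all genes tested. Many of these genes also answer to cytokines, hypoxia or cell stress.

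The 4 genes of this list with the smallest *P* were the same at both ages. Mt1, a metal-binding metallothionein, rose from 129 to 162 CPM in young sham to 428 to 485 CPM in young ICH samples (log2FC 1.64 ± 0.14, edgeR, adjusted *P* = 0.000426), and from 138 to 203 CPM to 413 to 501 CPM in aged mice (1.49 ± 0.14, edgeR, adjusted *P* = 0.000744). Cdkn1a, which encodes the cell cycle inhibitor p21, rose by a log2FC of 1.19 ± 0.15 (edgeR, adjusted *P* = 0.00137) in young and 1.45 ± 0.15 (edgeR, adjusted *P* = 0.00157) in aged mice. Sdc4, a cell surface proteoglycan, rose by 1.48 ± 0.19 and 1.20 ± 0.19 (edgeR, adjusted *P* = 0.00137 and 0.00509). Nfkbia, the inhibitor that holds NF-κB in the cytosol, rose by 0.95 ± 0.12 and 0.84 ± 0.12 (edgeR, adjusted *P* = 0.00141 and 0.00454). The largest log2FC in young mice was that of Angptl4, an inhibitor of lipoprotein lipase, at 2.72 ± 0.37 (edgeR, adjusted *P* = 0.00167), and that of aged mice was that of the transcription factor gene Cebpd, at 2.12 ± 0.35 (edgeR, adjusted *P* = 0.00587).

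Per1, Klf9 and Dusp1, often used as readouts of glucocorticoid action, were not among the upregulated genes. The clock gene Per1 had a log2FC of −0.05 ± 0.10 (edgeR, adjusted *P* = 0.744) in young and 0.23 ± 0.10 (edgeR, adjusted *P* = 0.147) in aged mice. The transcription factor gene Klf9 had −0.08 ± 0.10 (edgeR, adjusted *P* = 0.611) and −0.06 ± 0.10 (edgeR, adjusted *P* = 0.724), and the phosphatase gene Dusp1 had −0.09 ± 0.23 (edgeR, adjusted *P* = 0.82) and 0.24 ± 0.23 (edgeR, adjusted *P* = 0.538). Klf15 passed the adjustment in young mice below the fold limit (0.49 ± 0.12, edgeR, adjusted *P* = 0.0161) and had 0.31 ± 0.12 in aged mice (edgeR, adjusted *P* = 0.107). These genes were singled out after their values were seen.

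**Figure D4:**
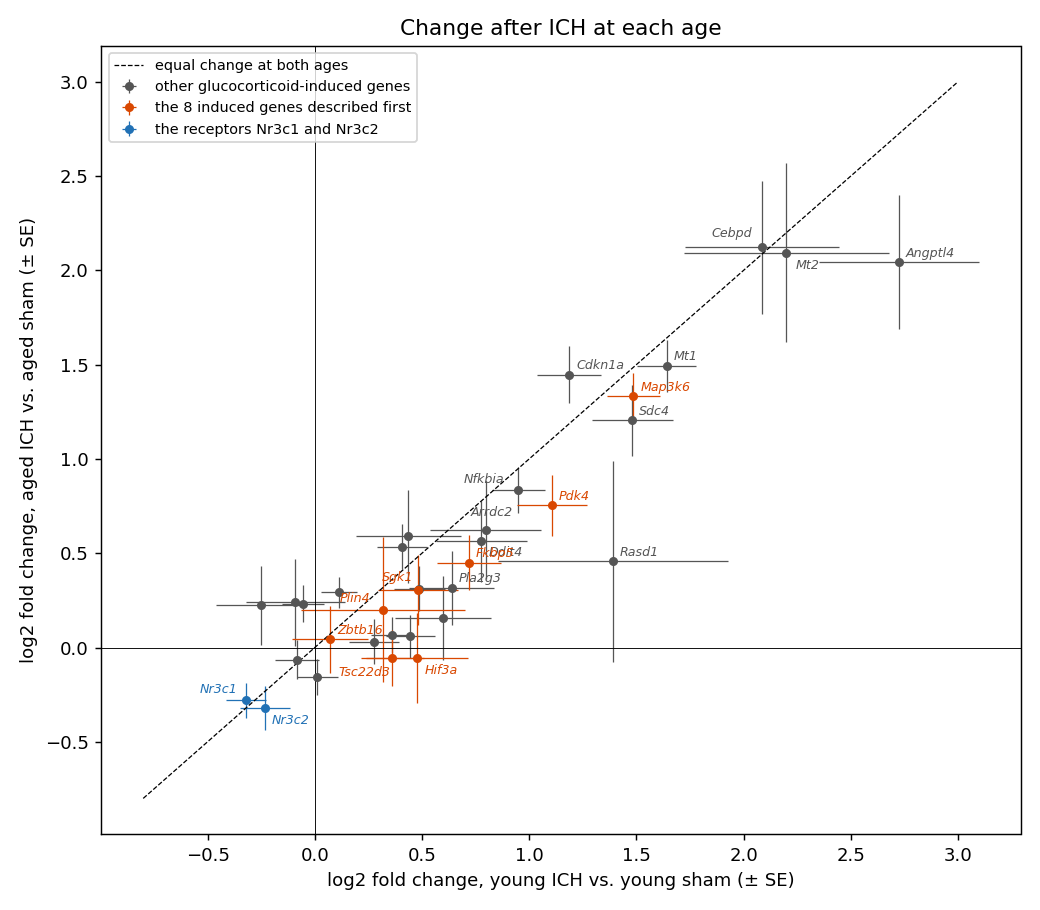
Log2 fold change after ICH in young mice (x axis) and aged mice (y axis), each with its SE, for the 24 other glucocorticoid-induced genes (gray), the 8 induced genes (orange) and the receptors (blue), with a dashed line where both ages changed equally. The other genes reached 2.72 in young mice (Angptl4) and 2.12 in aged mice (Cebpd), and both receptors lay below 0 on both axes.

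Between the ages, 1 of the 24 genes was upregulated and 0 downregulated in aged sham vs. young sham, where 2.82% and 0.898% of all genes were, and none met the criteria in aged ICH vs. young ICH or in the interaction. The former was Angptl4 (log2FC 0.92 ± 0.37, edgeR, adjusted *P* = 0.347), which was at 9.19 CPM in aged sham replicate 3 and at 3.10 and 3.61 CPM in the other two, and which had a log2FC of 0.25 without that sample. At an unadjusted *P* under 0.05 alone, with edgeR, 4 genes differed in aged ICH vs. young ICH (9.54% of all genes) and 2 in the interaction (2.82% of all genes). None of the 24 passed the adjustment in these 3 comparisons, which 0.102%, 0.0558% and 0% of all genes did. In the interaction, Gjb6, which encodes the astrocyte gap junction protein connexin 30, had a difference of −0.39 ± 0.16 (edgeR, adjusted *P* = 1) and Fam107a −0.29 ± 0.13 (edgeR, adjusted *P* = 1). These 2 were chosen after their values were seen. The median difference of the list in the interaction was −0.16, against −0.01 over all genes.

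The 10 chaperones of the receptor complex all passed the filter, and none met the criteria in any comparison. In young ICH vs. young sham, 3 passed the adjustment downward, below the fold limit, where 9.23% of all genes passed in this direction. These were Hspa8 (log2FC −0.30 ± 0.08, edgeR, adjusted *P* = 0.0234), Dnajb1 (−0.28 ± 0.06, edgeR, adjusted *P* = 0.00651) and the phosphatase gene Ppp5c (−0.25 ± 0.06, edgeR, adjusted *P* = 0.022). In aged mice none did with edgeR, and 1 of the 10 had an unadjusted *P* under 0.05, counted in either direction (28.9% of all genes). After ICH the log2FC was negative in 8 and positive in 2 of the 10 at each age. Ptges3 was higher in ICH samples without overlap at both ages, as 18.5% and 17.8% of all genes were. Its level was 108 to 112 CPM in young sham and 116 to 141 CPM in young ICH samples. In aged mice it was 106 to 119 CPM in sham and 131 to 132 CPM in ICH samples. In aged sham vs. young sham, 9 of the 10 had a negative log2FC, where 51.7% of all genes were above 0, with a median of −0.18 against 0.01 over all genes, and 7 of 10 had an unadjusted *P* under 0.05, where 12.3% of all genes did. All 7 were negative, Hspa8 having the smallest *P* (−0.32 ± 0.08, edgeR, adjusted *P* = 0.186), and none passed the adjustment.

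The 10 coactivators and corepressors of the receptor likewise had no gene past the fold limit. After ICH their log2FC was between −0.33 and −0.05 in young mice and between −0.26 and 0.03 in aged mice, and it was negative in 10 and 9 of 10 genes, where 52.7% and 50.3% of all genes were above 0. In young mice 4 passed the adjustment, the acetyltransferase gene Ep300 (−0.31 ± 0.08, edgeR, adjusted *P* = 0.0172), the coactivator genes Ncoa1 (−0.25 ± 0.07, edgeR, adjusted *P* = 0.0348) and Ncoa2 (−0.22 ± 0.06, edgeR, adjusted *P* = 0.0377) and the corepressor gene Nrip1 (−0.33 ± 0.11, edgeR, adjusted *P* = 0.0486). In aged mice Ncoa1 alone passed (−0.26 ± 0.07, edgeR, adjusted *P* = 0.0394). The shares of all genes that passed in this direction were 9.23% in young and 6.15% in aged mice.

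The genes with the pattern most like that of Map3k6 were sought among 16823 genes by the root mean square difference in log2 CPM over the 12 samples, after each gene was centred on its own mean. The 3 closest were Gpr65, a proton-sensing receptor (0.181), Cdkn1a (0.183) and Mt1 (0.188), against a median of 0.745 over all genes compared. For Fkbp5 they were Phyhd1 (0.134), Slc2a1, the glucose transporter GLUT1 of brain vessels (0.146), and Smox, a spermine oxidase (0.152), against a median of 0.404. Slc2a1 had mean levels of 143.3 CPM in young sham, 228.1 CPM in young ICH, 139.2 CPM in aged sham and 189.7 CPM in aged ICH samples. These differences are a description, and the genes were selected for them.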

How the data were processed

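The authors aligned clean paired reads to GRCm38.p6 with Hisat2 and counted them per gene with FeatureCounts. They deposited raw counts, which are not normalized, and FPKM, which are scaled to transcript length and mapped fragments. The strand setting and the treatment of reads with several alignments are not given in the sources used here. Groups came from the sample titles, and all 24 value columns were assigned (0 left over). No 2 count columns were identical.

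The quasi-likelihood test of edgeR 4.0.16 (R 4.3.3, limma 3.58.1) was fitted to the deposited counts of all 12 samples with 1 mean per group, after TMM normalization and filterByExpr with a minimum count of 10. The criteria were FC > 1.5 or < 0.67 and unadjusted *P* < 0.05, as in the study, with Benjamini-Hochberg values over all 21495 genes beside them. SEs are |log2FC| divided by the root of F, and log2 CPM used a prior count of 2. On simulated data for young ICH vs. young sham (21145 genes), 97% of 100 genes changed by 1 on the log2 scale were recovered. Of the unchanged genes, 2.04% met the criteria. The changed genes were drawn from those with higher counts. Counts were drawn gene by gene, without differences in tissue content between pools. In the real data the share recovered may therefore be lower, and the share of unchanged genes that meet the criteria may be higher.

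The 10 genes and all lists were chosen with earlier results of these data known. The text names the 10 genes, up to 4 members of each list with the smallest *P* among those that met the criteria, and 3 nearest patterns each for Fkbp5 and Map3k6. Other names were chosen after their values were seen. Gene positions are from GENCODE vM21 (GRCm38). The authors' design used DESeq2, which was run here as an alternative (DESeq2 1.42.0).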

Additional observations from a re-analysis of the deposited data

How the results depend on the processing

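Of 3196 single gene values under up to 19 other settings, 3150 kept their call or moved by less than the spread between samples, 29 lost the criteria, 15 met them newly and 0 reversed. Without 1 sample, the median log2FC of the 10 genes after ICH ranged from 0.29 to 0.67 in young and from 0.030 to 0.35 in aged mice, and the number of other glucocorticoid-induced genes meeting the criteria from 8 to 13 and from 7 to 11. Among the 10 genes, 0 to 1 met them in aged ICH vs. young ICH (0 without young ICH replicate 1) and 0 to 1 in the interaction. Among the 24 others, 0 to 3 did so in aged sham vs. young sham, 0 to 1 in aged ICH vs. young ICH and 0 to 1 in the interaction. By the adjusted *P*, 0 of the 10 genes passed in aged ICH vs. young ICH and 0 of the 24 in aged sham vs. young sham. In the latter comparison 0 of the 24 met the criteria with the 2 groups alone.

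Leaving out the 3 libraries with over 1000 CPM of choroid plexus markers was chosen after seeing the data and left 1 aged ICH sample, which was assumed to vary like the others. Of the 24 genes, 0 then met the criteria in aged sham vs. young sham and 1 in aged ICH vs. young ICH. The causes were not tested. Replicate numbers were not treated as pairs. The correlations of deviations between equal numbers ranged from −0.45 to 0.23. With 3 samples per group they cannot exclude that samples of equal number were handled together. With the number as a replicate block, 11 of the 24 others met the criteria after ICH in young and 7 in aged mice, and Tsc22d3 stayed the 1 gene of the 10 to meet the criteria in aged ICH vs. young ICH.

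Counts over all genes depended on the call rule and the filter. Genes higher and lower by the criteria numbered 606 and 193 in aged sham vs. young sham, 476 and 280 in aged ICH vs. young ICH and 104 and 232 in the interaction, and by the adjusted *P* 19 and 3, 8 and 4, and 0 and 0. After ICH the numbers were 1861 and 751 by the criteria and 2125 and 1985 by the adjusted *P* in the young groups, and 1557 and 607 against 1505 and 1323 in the aged groups. Without a filter on low counts the numbers by the criteria were 920 and 349, 796 and 484, and 338 and 449 for the 3 comparisons named first, and with a stricter filter 330 and 96, 251 and 136, and 37 and 126.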

Other observations

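Genes that make, inactivate or move glucocorticoids within the tissue were examined as well. Of 7 such genes, 5 passed the filter on low counts, and Hsd11b2 and Serpina6 did not. Abcb1b, a drug efflux pump that also carries corticosteroids, was upregulated at both ages, although reads may be shared with its close paralog Abcb1a. Its levels were 4.42, 5.87 and 5.41 CPM in young sham and 8.50, 9.49 and 8.98 CPM in young ICH samples (log2FC 0.78 ± 0.24, edgeR, adjusted *P* = 0.0437). In aged mice they were 8.51, 4.65 and 8.56 CPM in sham and 13.3, 7.68 and 11.8 CPM in ICH samples (0.59 ± 0.24, edgeR, adjusted *P* = 0.126), and the groups overlapped. H6pd, which supplies the cofactor for the regeneration of active hormone, passed the adjustment below the fold limit in young (0.56 ± 0.13, edgeR, adjusted *P* = 0.0126) and aged mice (0.52 ± 0.13, edgeR, adjusted *P* = 0.023). Hsd11b1, which regenerates the active hormone, had a log2FC of 0.12 ± 0.20 in young mice (edgeR, adjusted *P* = 0.703) and −0.24 ± 0.20 in aged mice (edgeR, adjusted *P* = 0.47).

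After ICH the log2FC of the progesterone receptor gene Pgr was −0.29 ± 0.14 in young mice (edgeR, adjusted *P* = 0.175) and −0.24 ± 0.14 in aged mice (edgeR, adjusted *P* = 0.28). Srd5a1, which encodes a 5-alpha-reductase of steroids, was lower in aged than in young mice in both settings, with a log2FC of −0.49 ± 0.15 in sham (edgeR, adjusted *P* = 0.236) and −0.53 ± 0.15 in ICH samples (edgeR, adjusted *P* = 0.267), below the fold limit and not past the adjustment. H6pd, Hsd11b1, Pgr and Srd5a1 were named after their values were seen.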
